A study of Mus musculus with 273 samples.

Results

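The mouse miRNA hairpins named miR-297, miR-466, miR-467 and miR-669 were followed through cortex, striatum, hypothalamus and liver. Members were all rows of the deposited count tables whose name is mmu-mir-297, mmu-mir-466, mmu-mir-467 or mmu-mir-669 followed by nothing, a letter or a hyphen. This gave 82 members of the 1226 hairpins counted. The names fall into 6 of miR-297, 29 of miR-466, 17 of miR-467 and 30 of miR-669.

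All 273 libraries came from wild-type C57BL/6J male mice aged 26 weeks, with no treatment named. Tissue was collected every 3 h for 36 h and each library carries a Zeitgeber time (ZT, hours on the light schedule). Liver gave 77 libraries, hypothalamus 72, right striatum 46 and right cortex 78, from 79 animal codes, so most animals gave several tissues. The ZT groups hold 2 to 12 libraries each, with no striatum library at ZT15. Bulk tissue was used, so fewer cells of a type and less of a miRNA per cell cannot be told apart.

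A miRNA is cut from a hairpin transcript into a mature strand of about the length of a small interfering RNA, and its seed, the bases from position 2 to position 8, directs pairing with target messenger RNAs. Most hairpins of these families are packed, as many near-identical copies, inside introns of Sfmbt2, a Polycomb-group gene that is imprinted in the mouse. The cluster arose within rodents, is built on UG-rich repeats, and is best known for its expression from the paternal allele in the placenta.

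Of the 82 members, 80 could be placed with RefSeq positions on GRCm38.p6. Introns of Sfmbt2 (chr2:10370510-10595253 in GENCODE vM21) hold 70 of them, all on the strand of the gene, within chr2:10466663-10518279, a stretch of 51.6 kb. Another 10 lie elsewhere in the genome, and 2 (miR-466a and miR-466c-3) had no single match.

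Mature sequences were found in RefSeq (GRCm38.p6) for 8 members, all outside Sfmbt2. They are shown because miR-466q is the 1 member placed outside Sfmbt2 with counts, and the other 7 are its relatives without a count in any library. Seeds are in capitals, and each is written 5′ to 3′ as RNA.
miR-466q: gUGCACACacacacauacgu
miR-466i-3p: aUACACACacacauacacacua
miR-466j: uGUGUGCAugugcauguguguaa
miR-466k: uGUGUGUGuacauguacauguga
miR-467f: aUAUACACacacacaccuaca
miR-467g: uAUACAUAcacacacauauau
miR-467h: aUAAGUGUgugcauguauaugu
miR-669n: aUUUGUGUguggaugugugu

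The 8 sequences have 8 different seeds, so no seed is shared among them. All carry a dinucleotide repeat, with the longest run between 7 and 12 bases. The letters CACACACA occur in 4 of the 8 arms. These 4 are the only arms with the letters among all 1738 mature arms of the RefSeq set, or 0.23%. The letters UGUGUGUG occur in 2 of the 8, and in 7 of all 1738 arms (0.403%), these 2 included. The set holds no arm of the members inside Sfmbt2, so its shares are no independent background. Only the strand of the mature arm was searched, and matches of the motifs can overlap.

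The miR-466q hairpin lies at chr3:28419943-28420018 on the plus strand, in an intron of Tnik, a gene for a kinase of the germinal centre family, and on the strand of that gene. The hairpins of miR-466i, miR-466k, miR-467f, miR-467g and miR-669n lie in introns of Cdk13, Gm37240, Fxr2, Grk4 and Slc30a7, each on the opposite strand. Those of miR-466j and miR-467h, and of miR-297a-1 and miR-466f-4, lie in no annotated gene.

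Library totals ran from 1988671 to 5236177 counts in liver, 1079380 to 3954710 in hypothalamus, 26341 to 4022070 in striatum and 1164449 to 4980887 in cortex. The liver markers miR-122, miR-192 and miR-802 together made 248177 to 354779 counts per 1000000 (CPM) in liver and 1634 to 7399 in brain. The neuronal list of 8 hairpins of miR-124, miR-9 and miR-128 made 4.16 to 12.2 CPM in liver, where 6 of the 8 were at 0 throughout, and 1888 to 33752 in brain. The oligodendrocyte pair, miR-219a-2 and miR-338, made 3001 to 13397 CPM in brain and 37.6 to 77.9 in liver. The choroid plexus pair, miR-204 and miR-211, made 12837 to 21465 CPM in hypothalamus, 7783 to 104998 in striatum, 3678 to 41876 in cortex and up to 6.59 in liver. Their part in the differences between tissues below was not tested. In all, 7 libraries stood apart from their tissue median (correlation under 0.97 over hairpins), among them striatum ZT9 replicate 6 with 26341 counts and no member count.

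Few of the hairpins carried the counts. A count in any library was found for 26 of the 82 members, and 56 had none. The members drew 19326 counts out of 733419357 in all libraries. A member without a count is limited to 0.00409 CPM by 3 counts over all libraries, which covers counting error only. Whether reads that match several hairpins were shared, kept or dropped is not given in the sources used here, so near-identical copies are uncertain.

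The 3 most counted members were miR-669c with 7727 counts, miR-467d with 3891 and miR-467e with 3642. They made 79.0% of the members' counts. With miR-467c, miR-669o, miR-669h, miR-466q, miR-669e and miR-669l, which had 1187 to 289 counts, 9 members made 98.4%. Next came miR-466n with 103 counts, miR-297a-2 with 68 and miR-669a-3 with 64. Of the remaining 14 detected members, 9 had 1 to 3 counts in all.

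By family, miR-669 had 10 of 30 members with a count and miR-467 had 4 of 17. Those of miR-466 were 10 of 29, and those of miR-297 were 2 of 6. The families' shares of the counts were 51.6% for miR-669, 45.1% for miR-467, 2.84% for miR-466 and 0.404% for miR-297.

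Hairpins that carry a copy number in their name, such as miR-466b-3 or miR-669a-3, were set beside those without one. Of 46 copy-numbered members 6 had a count, with 137 counts between them. Of the other 36, 20 had a count, with 19189 counts.

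Along the Sfmbt2 stretch the counts sat at the ends. The leading hairpins lie close together on the plus strand, miR-467e at chr2:10505721-10505807, miR-467d at chr2:10507630-10507714 and miR-669c at chr2:10509296-10509404, all within introns. The first 15 hairpins, up to miR-669a-3, held 9 with a count and 2007 counts, most of them miR-467c. The middle 36, over 28.6 kb, held 2 with a count (miR-467b and miR-466b-3) and 6 counts. Of these middle hairpins 31 have a copy number in their name. The last 19, from miR-467e on, held 13 with a count and 16911 counts, or 87.5% of the members' total.

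**Figure D1:**
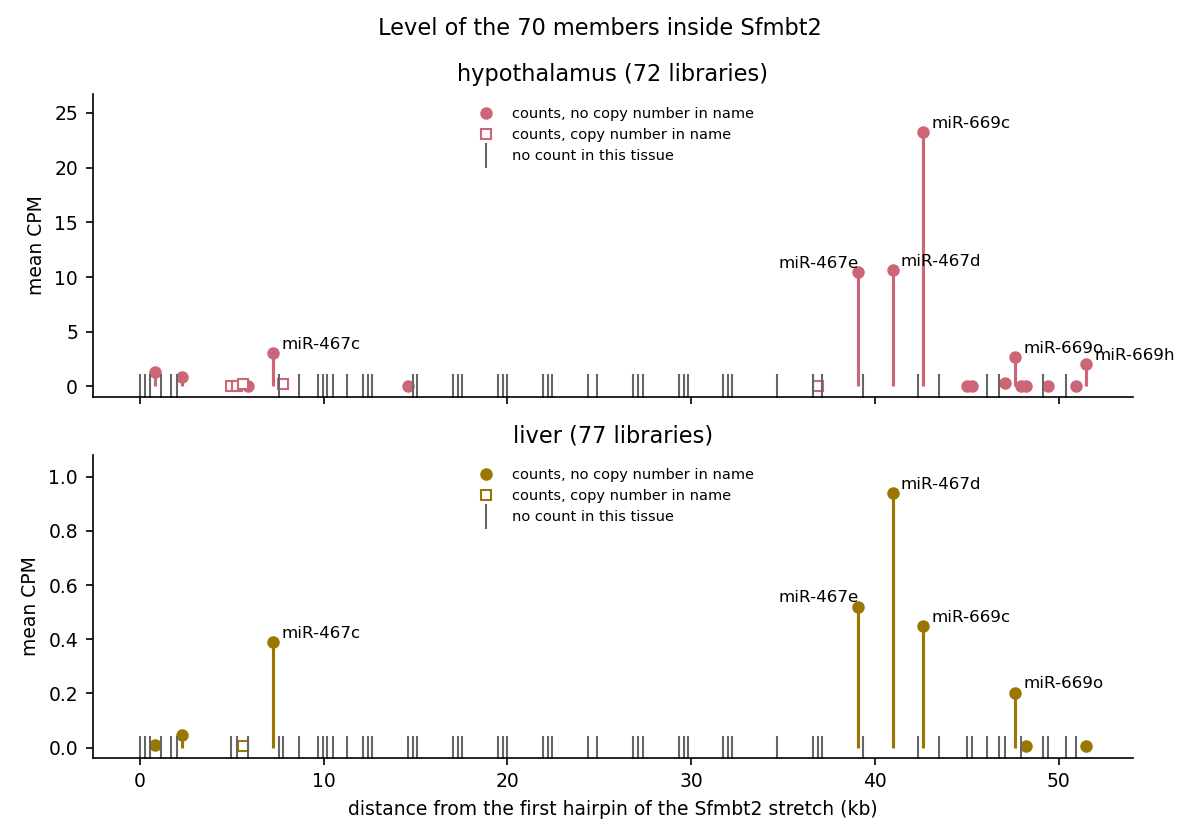
Mean CPM (vertical axis) of the 70 members inside Sfmbt2 against the distance of their start from the first hairpin in kb (horizontal axis), in the 72 hypothalamus and 77 liver libraries, on linear axes of different height. Circles and squares are members with counts, without and with a copy number in the name, and ticks are members without a count in that tissue; the tallest stems are miR-467e, miR-467d and miR-669c near the far end in both tissues.

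In brain the level rose in the order cortex, striatum, hypothalamus, and liver was lowest. Summed over the members, the CPM from library totals were 56.0 ± 13.5 for hypothalamus (SD, n = 72), 34.6 ± 12.7 for striatum (n = 46), 21.3 ± 5.71 for cortex (n = 78) and 2.61 ± 1.28 for liver (n = 77). The lowest, median and highest libraries were 7.18, 21.3 and 39.7 in cortex, and 0, 34.4 and 58.9 in striatum. They were 29.9, 53.4 and 87.2 in hypothalamus and 0.609, 2.48 and 6.49 in liver. The hypothalamus libraries overlapped those of cortex and striatum and stood wholly above those of liver. With TMM scaling the means were 36.3 in hypothalamus, 22.5 in striatum, 14 in cortex and 7.60 in liver, so the order held and the distance to liver shrank. The choroid plexus pair had the same order of medians, with 17612 CPM in hypothalamus, 14561 in striatum, 4891 in cortex and 1.56 in liver. In brain the neuronal list ran the other way, with medians of 3140, 8706 and 21368 CPM in hypothalamus, striatum and cortex. White blood cell miRNAs (miR-142a, miR-223 and miR-150) did so too, at 2707, 3508 and 3920. The oligodendrocyte pair was highest in striatum (4620, 8649 and 5274). For red blood cell miR-451a and miR-144 the medians were 824, 473 and 635. The part of any of these lists in the members' order was not tested. A library held counts of 10.1 ± 1.58 different members in hypothalamus, 8.28 ± 2.56 in striatum, 8.37 ± 1.60 in cortex and 3.66 ± 1.18 in liver. These numbers are not set to an equal depth, and library totals differed between tissues. Without the striatum library of 26341 counts the striatum mean was 35.4 ± 11.7 (n = 45), with 11 as its lowest value.

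miR-669c led the members in all brain tissues. Its lowest, median and highest CPM were 2.25, 7.83 and 15.6 in cortex, and 0, 13.9 and 26.7 in striatum. For hypothalamus they were 10.2, 22.1 and 40.6, and for liver 0, 0.352 and 1.51. Every cortex and hypothalamus library lay above every liver library, while cortex and hypothalamus overlapped. In the same animals it was above its liver level in 77 of 77 for cortex, 43 of 44 for striatum and 71 of 71 for hypothalamus. Over the 9 library runs that held both tissues, run means ranged from 6.19 to 11.3 CPM in cortex and from 18.9 to 34.1 in hypothalamus, without overlap. It ranked 274 among the 1226 hairpins by mean CPM in hypothalamus and 347 in liver.

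miR-467d came next, with mean CPM of 10.7 ± 3.53 (hypothalamus), 6.93 ± 3.50 (striatum), 4.65 ± 1.95 (cortex) and 0.940 ± 0.629 (liver). miR-467e was close to it, with 10.5 ± 3.06, 6.74 ± 2.93, 4.22 ± 1.51 and 0.521 ± 0.510 CPM in the same order. The pair differed by less than 1 SD in each of the 4 tissues. miR-467c followed with 3.05 ± 1.52, 2.18 ± 1.38, 1.33 ± 0.786 and 0.388 ± 0.431 CPM. miR-669o had 2.71 ± 1.29, 1.65 ± 1.2, 0.95 ± 0.627 and 0.203 ± 0.245 CPM. A single count was worth less than 1 CPM in most libraries, so values under about 1 CPM rest on few counts.

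miR-669h and miR-669e are close to absent from liver. miR-669h had a count in 69 of 72 hypothalamus libraries, 34 of 46 of striatum, 58 of 78 of cortex and 2 of 77 of liver. miR-669e had one in 69, 30, 46 and 2 of them. Detection depends on depth, so the expected share with a count was also computed at 1000000 counts, in libraries of at least that total. For miR-669h it was 85.7% in hypothalamus, 53.7% in striatum (n = 39), 38.3% in cortex and 0.790% in liver. For miR-669e it was 71.6%, 52.5%, 26.5% and 1.07% in the same order. Pooled over libraries, miR-669h had 354 counts in hypothalamus and 2 in liver, a ratio per library total of 246 with a 95% exact interval of 67.6 to 2039. For miR-669e, also with 2 liver counts, the ratio was 152, from 41.6 to 1264. These intervals cover counting error only. A fit with TMM and no filter gave smaller differences. Its log2 ratios of hypothalamus to liver were 4.53 ± 0.30 for miR-669h and 3.87 ± 0.34 for miR-669e. This fit differs from the pooled ratios in scaling and in model, and the parts of the 2 are not given separately here. miR-466n and miR-669a-3 had no liver count, and their hypothalamus levels were at least 24.1-fold and 14.8-fold higher than 3 counts over the pooled liver libraries allow.

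miR-466q, the member in Tnik, had another order of tissues. Cortex was highest with 0.944 ± 0.552 CPM, before hypothalamus with 0.645 ± 0.633, striatum with 0.592 ± 0.688 and liver with 0.0294 ± 0.0943. A count was found in 73 of 78 cortex libraries, 52 of 72 of hypothalamus, 28 of 46 of striatum and 7 of 77 of liver. At 1000000 counts the expected shares were 61.9%, 45.8%, 39.5% and 2.94% in the same order. In the 72 animals with both tissues, cortex was above hypothalamus in 49 for miR-466q and in 0 for miR-669c.

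miR-297 was represented by miR-297a-2, with a count in 31 hypothalamus, 13 cortex, 10 striatum and 1 liver libraries. Its highest mean was 0.257 CPM, in hypothalamus. At 1000000 counts the expected shares with a count were 22.8% in hypothalamus, 5.94% in cortex, 10.4% in striatum and 0.566% in liver.

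**Figure D2:**
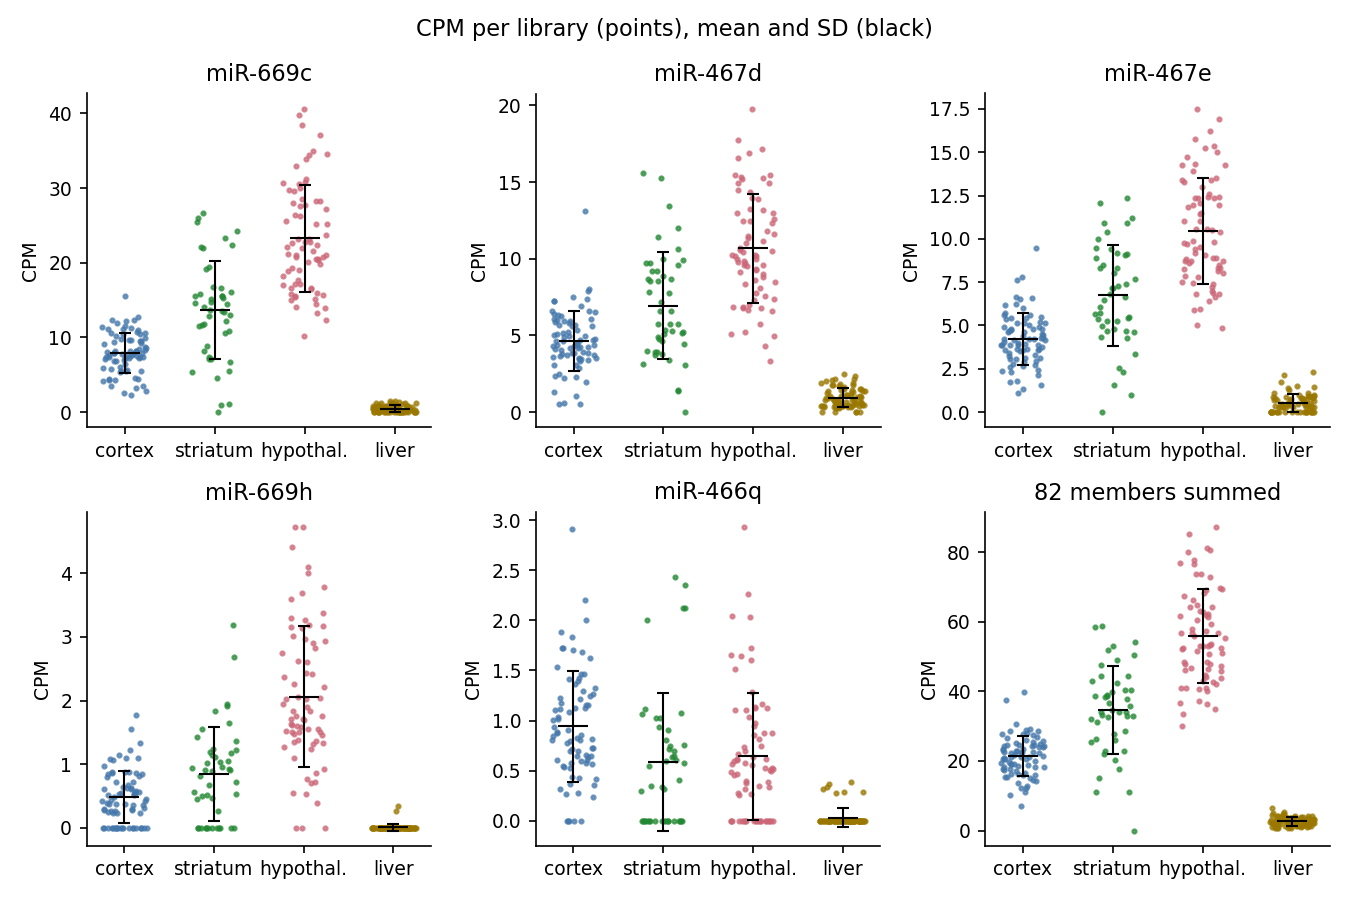
CPM per library (points, vertical axis, linear, 1 scale per panel) by tissue for miR-669c, miR-467d, miR-467e, miR-669h, miR-466q and the 82 members summed, with the mean and SD in black. The first 4 and the sum climb from cortex to hypothalamus with overlapping libraries, and miR-466q has its highest mean, 0.944 CPM, in cortex.

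The make-up of the members' counts differed between brain and liver. Of a hypothalamus library's member counts miR-669c made 41.3% ± 6.03, of a striatum library's 38.4% ± 11.6 (n = 45 with a member count), of a cortex library's 37.2% ± 8.22 and of a liver library's 16.0% ± 15.8. miR-467d made 19.0% ± 4.64, 20.5% ± 8.67, 21.4% ± 6.56 and 36.1% ± 18.6 in the same order, and so led in liver. It had a count in 72 of 77 liver libraries, against 51 for miR-669c. A liver library held 2 to 18 member counts, so its shares move in large steps. These shares do not depend on the scaling between libraries.

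**Figure D3:**
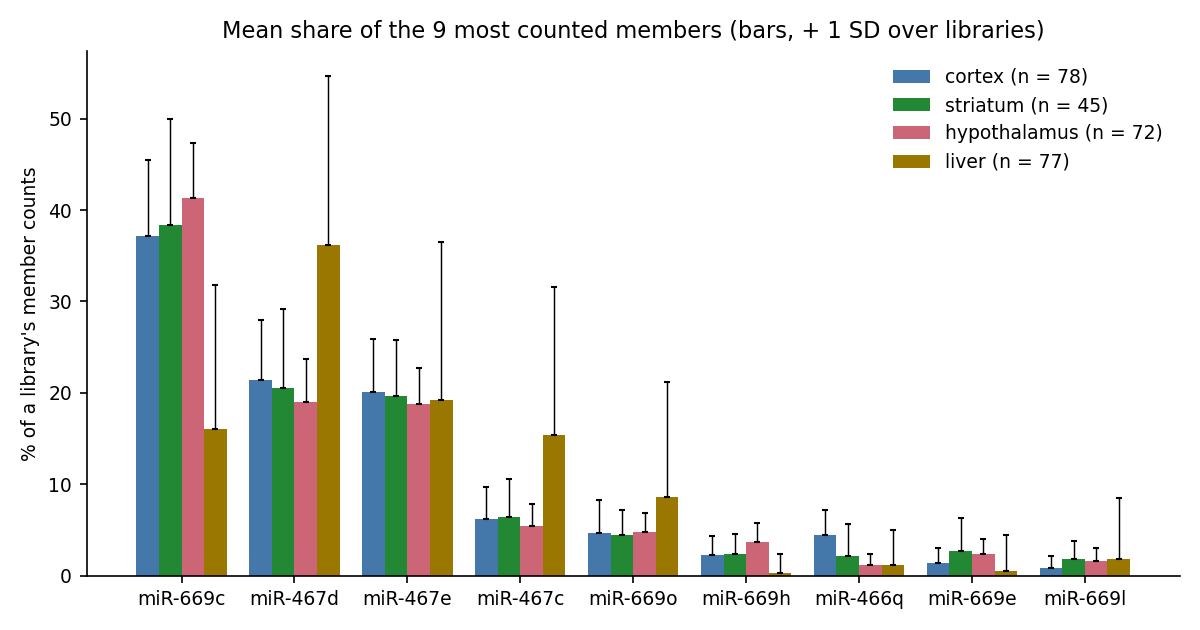
Mean percent of a library's member counts (vertical axis, bars from 0, upper whisker 1 SD over libraries) for the 9 most counted members in the 4 tissues. In the brain tissues miR-669c has the tallest bar, 37.2% to 41.3%, and in liver miR-467d has it, 36.1%.

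For the tests, the count model of edgeR (quasi-likelihood, TMM scaling, Benjamini-Hochberg adjustment over all hairpins tested) was fitted on all libraries. A hairpin was called at an adjusted p under 0.05 and an absolute log2 ratio of at least 1. Of the members, 5 passed the filter on low counts (miR-669c, miR-467d, miR-467e, miR-467c and miR-669o) among 441 hairpins. They passed on their brain levels, so their counts of calls are descriptions.

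Hypothalamus was above cortex for all 5, and all 5 were called, where 27.4% of all hairpins tested were called and 17.5% were called higher in hypothalamus. The log2 ratio of cortex to hypothalamus was -1.52 ± 0.08 (SE) for miR-669c, with an adjusted p of 9.65e-48 by edgeR. It was -1.46 for miR-669o, -1.27 for miR-467e, -1.17 for miR-467d and -1.16 for miR-467c. Higher calls in cortex made 9.98% of all hairpins. The median over the 5 was -1.27 and over all 441 hairpins -0.07. In 72 of 72 animals with both tissues the CPM of miR-669c was higher in hypothalamus, and for miR-467d this held in 67. Within each of the 9 library runs that held both tissues, the mean of hypothalamus was the higher for all 5. With library run as a term the 5 ratios were -1.53 to -1.17.

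Striatum lay between them. No member was called between cortex and striatum, where 13.4% of hairpins were (5.67% higher in cortex, 7.71% higher in striatum). All 5 were nonetheless lower in cortex at an adjusted p under 0.05 by edgeR, with log2 ratios from -0.93 for miR-669o to -0.53 for miR-467d, short of the size required. With DESeq2 as the tool the count was 0 too, and with its size factors in edgeR miR-669o was called at -1.05. In 45 animals with both tissues striatum was higher in 32 for miR-669c and in 35 for miR-467e. The mean of striatum was the higher in 7 of 8 runs for miR-669c.

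No member was called between striatum and hypothalamus either, where 12.9% of hairpins were (4.76% higher in striatum, 8.16% higher in hypothalamus), and DESeq2 gave 0 as well. The log2 ratios of striatum to hypothalamus were -0.76 ± 0.10 for miR-669c (adjusted p 1.79e-12, edgeR) to -0.43 ± 0.15 for miR-467c (adjusted p 0.00815). The adjusted p was under 0.05 for all 5. Hypothalamus was higher in 36 of 43 animals for miR-669c, and in 8 of 8 runs. The 3 ratios share their libraries, so they are not separate evidence of the order.

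The size of the difference from liver depended on the scaling. The median log2 ratio of all 441 hairpins, cortex to liver, moved from 0.95 under TMM to 1.33 under size factors of DESeq2 and 3.01 under library totals. For striatum it was 1.12, 1.62 and 3.15, and for hypothalamus 1.07, 1.70 and 3.20. The members' ratios are therefore given both as fitted and against that median. Liver libraries came from runs 10 to 14 and brain libraries from runs 1 to 9, but for 1 hypothalamus library in run 10. Library run and the brain to liver difference can thus hardly be told apart.

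With TMM, cortex against liver called 1 of the 5 members, miR-669c at 1.97 ± 0.14 (adjusted p 9.41e-34, edgeR), where 78.9% of hairpins were called. The count was 2 without the 7 libraries apart, with miR-467e added. Striatum against liver called 3 of 5, where 81.9% were called. These were miR-669c at 2.73 ± 0.15, miR-467e at 1.54 ± 0.14 and miR-669o at 1.02 ± 0.23. Hypothalamus against liver called 4 of 5, where 82.1% were called. miR-669c stood at 3.49 ± 0.13 (adjusted p 8.68e-78, edgeR), miR-467e at 2.13 ± 0.13, miR-669o at 1.55 ± 0.20 and miR-467d at 1.30 ± 0.12. With the animal as a block, in limma, 3 members were called for hypothalamus and 2 for striatum, as miR-669o fell short of the size required at 0.97 and 0.41. A share of 1 to 4 in 5 is not above these backgrounds of both directions. All of these member calls were higher in brain. Calls in that direction made 49.4% of hairpins for cortex, 50.8% for striatum and 50.6% for hypothalamus. The TMM shares of 3 and 4 in 5 lie above these and that of 1 in 5 below, and they remain descriptions.

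Against the median of all hairpins, miR-669c was higher by 1.01 in cortex, 1.61 in striatum and 2.42 in hypothalamus with TMM. With library totals the values were 1.01, 1.66 and 2.36, so the place of miR-669c among the hairpins changed little. miR-467c lay below the median in each tissue, by -1.29, -0.73 and -0.25 with TMM. miR-467d lay at -0.81, -0.45 and 0.24, and miR-467e at -0.09, 0.42 and 1.06. Relative to other hairpins, then, the brain to liver contrast was above the median for miR-669c in all 3 tissues and below it for miR-467c. Neither was extreme. With TMM, miR-669c lay above 58.0% of hairpins in cortex, 61.2% in striatum and 65.1% in hypothalamus. For miR-467c the shares were 36.1%, 43.1% and 47.6%. As fitted, the sign for miR-467c in cortex was -0.34 with TMM and turned to 0.05 and 1.69 with the other scalings.

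**Figure D4:**
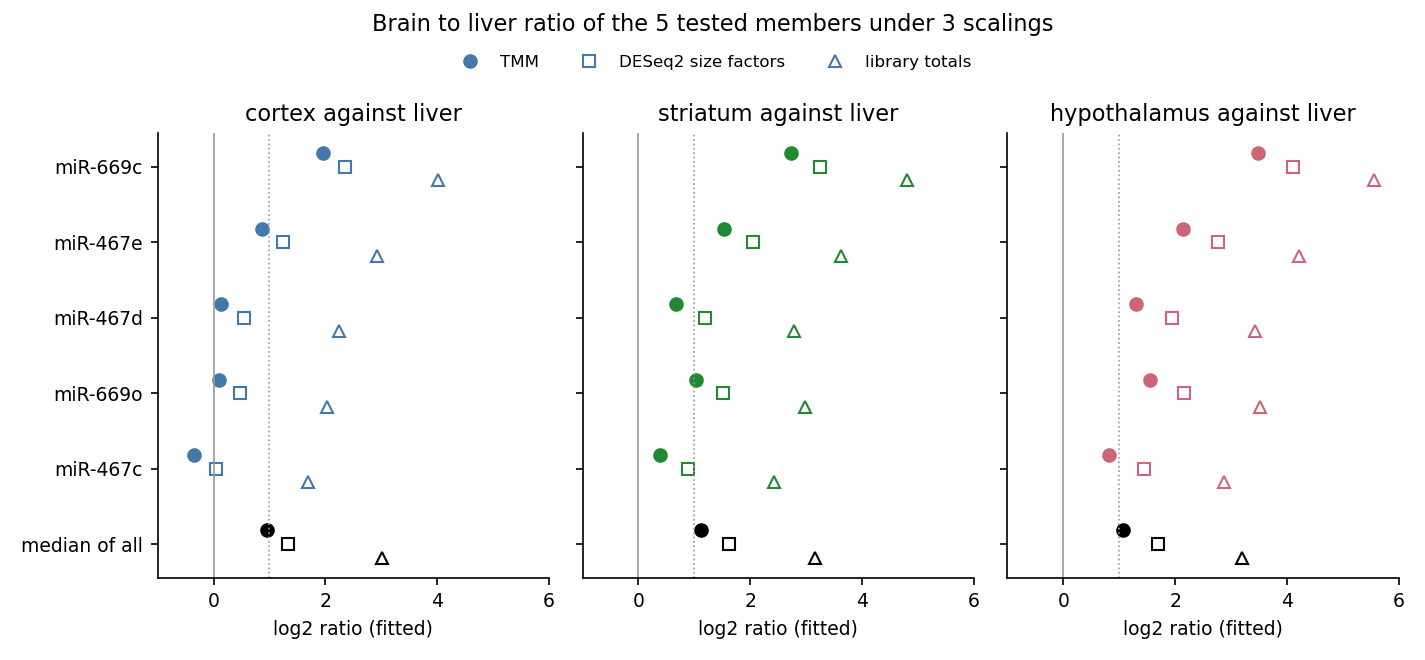
Fitted log2 ratio to liver (horizontal axis) of the 5 tested members and the median of all 441 hairpins (black), for cortex, striatum and hypothalamus, under TMM scaling (filled circles), DESeq2 size factors (squares) and library totals (triangles), with lines at 0 and, dotted, at 1. All symbols move to the right together with the median, whose value for cortex goes from 0.95 to 3.01, and miR-669c stays to the right of it.

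In the 1 run that held both kinds of tissue, the hypothalamus library (ZT0 replicate 12) had 14.5 CPM of miR-669c. The 25 liver libraries of that run had 0 to 1.51 CPM of it. Its miR-467d level was 6.97 CPM, against 0 to 2.50.

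Without the filter, 26 members among 1004 hairpins could be fitted. Calls then numbered 7 for cortex against liver, 10 for striatum and 12 for hypothalamus, where 59.4%, 60.4% and 61.4% of hairpins were called. All of them were higher in brain, a direction that held 34.8%, 35.1% and 35% of hairpins. Between brain tissues the member calls numbered 2 for cortex against striatum, 10 for cortex against hypothalamus and 1 for striatum against hypothalamus. The backgrounds were 7.77% (3.69% higher in cortex, 4.08% higher in striatum), 16.6% (6.77% and 9.86%, cortex first) and 8.47% (3.39% and 5.08%, striatum first). All 10 were lower in cortex.

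Members that the filter had removed could be compared within brain in that fit. miR-669h had a log2 ratio of -1.91 ± 0.13 for cortex to hypothalamus (adjusted p 1.44e-33, edgeR) and of -1.33 ± 0.16 for striatum to hypothalamus (adjusted p 7.79e-14). It was the 1 member called in the second of these. miR-669e had -1.81 ± 0.17 for cortex to hypothalamus and miR-669l had -1.73 ± 0.20, beside -1.47 ± 0.09 for miR-669c. For striatum to hypothalamus miR-669e had -0.61 ± 0.18 and miR-669l -0.25 ± 0.21, beside -0.78 ± 0.10 for miR-669c. Against striatum, miR-669l stood at -1.48 ± 0.23 and miR-669e at -1.2 ± 0.21, the 2 called there. Each kept its sign with library totals and with DESeq2 size factors.

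miR-466q went the other way. It was higher in cortex than in hypothalamus by a log2 ratio of 0.65 ± 0.16 (adjusted p 1.17e-04, edgeR, no filter), which is under the size required for a call. With library totals the value was 0.60 and with DESeq2 size factors 0.38 (adjusted p 0.0323). Against striatum it was 0.63 ± 0.19 (adjusted p 0.00338), and with DESeq2 size factors 0.44 (adjusted p 0.0601). Between striatum and hypothalamus its ratio was 0.02 ± 0.21. The other 8 of the 9 most counted members, all inside Sfmbt2, were lower in cortex than in hypothalamus. The difference between miR-466q and these members was not itself tested.

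The sampling every 3 h asks whether a level follows the day. Rhythm was tested within each tissue as a cosine and a sine of 24 h together, called at an adjusted p under 0.05. The size is given as the fitted log2 ratio of peak to trough.

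No member was called rhythmic. In cortex, striatum and hypothalamus 3 members passed the filter (miR-669c, miR-467d and miR-467e), and in liver none did. Calls over all hairpins tested made 4.98% in liver, 0.263% in hypothalamus, 0.528% in striatum and 0.254% in cortex. An unadjusted p under 0.05 was found for 1 of 3 members in striatum, and for 0 of 3 in cortex and in hypothalamus. DESeq2 called 0 in each as well. Without the filter edgeR called 0 of 21 members in cortex (0.106% of hairpins), 0 of 19 in striatum (0.437%), 0 of 23 in hypothalamus (0.107%) and 0 of 11 in liver (1.06%). An unadjusted p under 0.05 was then found for 2, 1, 1 and 1 of them. The smallest of these was 0.0154, for miR-466o in cortex (adjusted p 0.658, edgeR), a member with 11 counts in all libraries.

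Among the members that passed the filter, the smallest unadjusted p was that of miR-467d in striatum, 0.0444 by edgeR, with an adjusted p of 0.998. Its fitted ratio was 0.84 ± 0.32 with a peak at ZT17.1. The 2 striatum libraries at ZT18 held 7.17 and 15.3 CPM, both of 1 library run. At ZT9 the mean was 4.81 ± 3.18 CPM (n = 9) and at ZT3 4.50 ± 1.77 (n = 6). Leaving out each striatum library of ZT18 or ZT21 in turn moved the fitted ratio between 0.72 and 0.93, and none brought a call.

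In cortex the smallest p among the 3 members that passed the filter was 0.645, again for miR-467d, with a ratio of 0.18 ± 0.19. In hypothalamus it was 0.547 among the 3, for miR-669c, with a ratio of 0.15 ± 0.13. There the mean CPM of miR-669c was lowest at ZT0, 20.6, and highest at ZT6, 26.3, while the SD within a ZT was 3.62 to 9.11. That SD describes single libraries and not the error of a ZT mean, so these values are no test of a difference between ZT.

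Cortex at ZT15 was low for miR-467d, which a single wave of 24 h does not describe. Its 6 libraries had a lowest, median and highest value of 0.552, 1.76 and 4.95 CPM and a mean of 2.06 ± 1.57. The means at the other 7 ZT ran from 4.39 to 5.65 CPM. The summed members were also lowest there, at 14.8 ± 4.41 CPM (n = 6) against 19.1 to 23.8. The 6 libraries came from 5 runs, with a median total of 1842410 counts, the lowest of the 8 cortex groups. With ZT as a factor in place of the wave, an alternative added after the values were seen, miR-467d had an adjusted p of 0.257 by edgeR and no member was called in any tissue.

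In liver, miR-467d ranged from 0.523 ± 0.266 CPM at ZT18 to 1.24 ± 0.700 at ZT12. At this depth, with a median total of 2920410 counts, 1 count is a large share of such a level, and a rhythm of the members was not detectable.

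**Figure D5:**
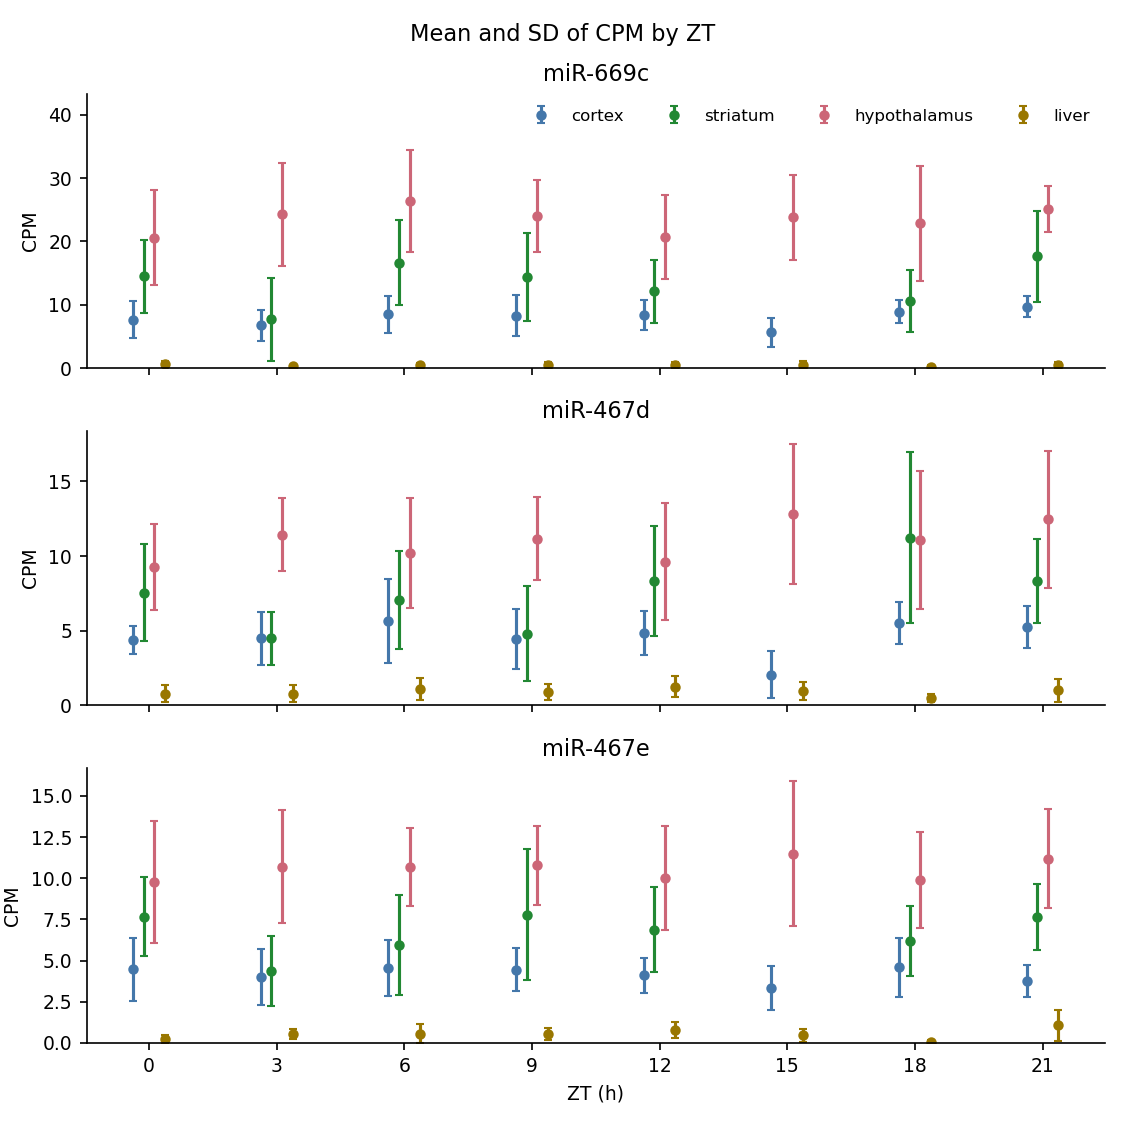
Mean CPM with SD over libraries (vertical axis) against ZT in hours (horizontal axis) for miR-669c, miR-467d and miR-467e in the 4 tissues, points of the tissues set slightly apart. The tissue order is seen at most ZT, bars overlap along the day within a tissue, and cortex at ZT15 is low for miR-467d, at 2.06 CPM.

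The times 0 to 12 h and 24 to 36 h cover the same ZT on successive days, and the libraries of these passages were compared with ZT as a factor. In cortex 1 of 3 members was called, miR-467d, which was higher on the second passage by a log2 ratio of 0.35 ± 0.13 (adjusted p 0.0393, edgeR), where 30.7% of hairpins were called. Its CPM was 4.08 ± 1.61 on the first passage (n = 30) and 5.44 ± 1.95 on the second (n = 30), with overlapping libraries. With the replicate number as a block the adjusted p was 0.208, and with no filter it was 0.0835. In that unfiltered fit miR-669h was called in its place, at 0.95 ± 0.30 (adjusted p 0.0270), where 9.15% of hairpins were called. No member was called in striatum or hypothalamus, where 0% of hairpins were, and none passed the filter in liver. At an unadjusted p under 0.05 there was 1 of 3 in striatum, miR-467e, and 0 of 4 in hypothalamus. DESeq2 gave 1, 0 and 0 calls for cortex, striatum and hypothalamus. In cortex 60 of 398 hairpins were then higher on the second passage and 62 lower.

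Other hairpins with a UG repeat in a mature arm give a point of comparison. The RefSeq set held 5 hairpins outside the families with UGUGUGUG in a mature arm, shown with the motif in capitals.
miR-672-5p: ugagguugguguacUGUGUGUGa
miR-574-5p: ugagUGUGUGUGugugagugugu
miR-3082-5p: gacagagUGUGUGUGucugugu
miR-32-3p: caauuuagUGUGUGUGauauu
miR-1187: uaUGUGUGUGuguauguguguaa

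Counts are per hairpin and cannot be given to the arm with the motif. The levels of these hairpins did not follow a single pattern. miR-672 had the tissue order of the leading Sfmbt2 members: hypothalamus held 117 ± 26.5 CPM, striatum 51.4 ± 17.0, cortex 37.4 ± 6.23 and liver 0.134 ± 0.220. Its log2 ratio of cortex to hypothalamus was -1.62 ± 0.06, beside -1.52 for miR-669c. miR-574 and miR-32 were lower in cortex than in liver, with log2 ratios of -2.93 ± 0.07 and -3.11 ± 0.06 under TMM and mean CPM of 36.7 against 63.3 and 15.2 against 29.7. miR-3082 had 42.5 ± 6.97 CPM in cortex and 8.56 ± 1.95 in liver, with a log2 ratio of 0.17 ± 0.05 under TMM. miR-1187 had no count. No hairpin outside the 4 families lies inside the Sfmbt2 stretch.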

How the data were processed

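Total RNA was extracted with the Qiagen miRNeasy kit and enriched for small RNA before library construction, per the labels' protocols. The deposited values are raw counts per hairpin in 4 tables, 1 for each tissue. Alignment and counting tools listed in the submitters' processing notes are STAR (2.7.3a) and HTSeq (0.10.0), with the build GRCm38 (mm10). Trimming, the annotation release and the treatment of reads with several matches are not given in the sources used here.

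CPM were computed from library totals. Models were fitted with edgeR 4.0.16 (R 4.3.3) after filterByExpr, using TMM scaling and Benjamini-Hochberg adjustment over all hairpins of a fit. DESeq2 1.42.0 and limma 3.58.1 gave alternatives. Standard errors are the log2 ratio over the root of F; that of a peak to trough ratio leaves out the covariance of its terms. The scripts were tested on simulated data, and alternatives are given in the closing section. No 2 libraries held identical counts. The labels do not say that tissues pair by replicate number: same-numbered libraries shared an animal in 1 to 11 cases per tissue pair, and correlations of their deviations ran from -0.61 to 0.66. A library run is a block of libraries whose numbers follow one another under a single L code.

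Members and lists were chosen with earlier results of these data known. Named members are the 5 highest by mean CPM in a tissue, the highest of each family, the called members with the largest ratios, every member called for rhythm or passage, and that with the smallest rhythm p. Others named for their counts or position were chosen after their values were seen.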

Additional observations from a re-analysis of the deposited data

Results flagged for a closer look

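Dixon's criterion was applied in 55 tests over sets of 4 to 10 libraries of 1 tissue and ZT. They took the summed members and, in brain only, also miR-669c, miR-467d and miR-467e, which are parts of that sum. In these tests 1 library stood apart, where chance flags about 1 in 20. It was hypothalamus ZT18 replicate 1, with 87.2 CPM of the summed members against 47.3 to 53.3 in the other 4 libraries. This library came from run 2, whose 10 hypothalamus libraries held 63.1 to 87.2 CPM. The other 4 came from runs 3, 6 and 8, where the hypothalamus means were 51.5, 58.2 and 45.7 CPM. The part of the run was not tested. The total of the flagged library was 3361929 counts.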

How the results depend on the processing

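Counts of members called moved most with the filter and the scaling. Without the filter they were 7, 10 and 12 for cortex, striatum and hypothalamus against liver, out of 26 members fitted. They were 2 for cortex against striatum, 10 for cortex against hypothalamus and 1 for striatum against hypothalamus. The shares of all 1004 hairpins called in that fit are given above with these counts. Library totals gave 5 of 5 for each brain tissue against liver. All were higher in brain, as were 316, 308 and 309 of 441 hairpins, with 54, 60 and 56 called higher in liver. DESeq2 size factors gave 2, 4 and 5 of 5 against liver in that order. Of 441 hairpins 237, 244 and 247 were called higher in brain and 121, 119 and 117 in liver. For cortex against striatum 1 member was called, higher in striatum, where 52 hairpins were and 19 were higher in cortex. A term for library run gave 2, 2 and 5 against liver. Between brain tissues it gave 1 for cortex against striatum, 7 for cortex against hypothalamus and 1 for striatum against hypothalamus. miR-669e and miR-669h passed the filter in that fit, so these are out of 7 members, among 524 hairpins. Against liver 232, 232 and 231 hairpins were higher in brain and 129, 139 and 138 in liver. Between brain tissues 30, 56 and 29 were higher in the first named and 35, 83 and 40 in the second. The ratios to liver in this fit rest on the 1 hypothalamus library in a run with liver libraries. Without the 7 libraries apart, chosen after seeing the data, they were 2, 3 and 5 of 5 against liver. Of 440 hairpins 232, 235 and 231 were called higher in brain and 121, 126 and 130 in liver. For the cortex passages they were 2 of 3, where 83 of 401 hairpins were higher on the second passage and 63 lower. With copies of a name summed they were 2 of 5 for cortex against liver. There 221 of 419 hairpins were higher in cortex and 117 in liver. With the replicate number as a replicate block, the cortex passage count fell to 0 and that of striatum against liver to 2, and no other count moved. In that passage fit 37 of 417 hairpins were higher on the second passage and 35 lower. Against liver 227 of 448 were higher in striatum and 140 in liver. With the animal as a replicate block in limma voom, counts were 1, 2 and 3 against liver, 0 for cortex against striatum, 5 for cortex against hypothalamus and 0 for striatum against hypothalamus. At 0 to 21 h alone 4 members passed the filter among 433 hairpins. Counts were then 1, 2, 3, 0, 4 and 0 in the same order of comparisons. Against liver 216, 221 and 222 hairpins were higher in brain and 129, 132 and 136 in liver. Between brain tissues 24, 43 and 28 were higher in the first named and 35, 71 and 39 in the second. No member was called for rhythm under any alternative, including leaving out each striatum or hypothalamus library of the small ZT groups in turn, where the count was 0 to 0.

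Some ratios changed sign. For miR-467c, cortex against liver was 0.047 under DESeq2 size factors and 1.69 under library totals, and striatum against liver was -0.45 with library run as a term. For miR-467d, cortex against liver was -0.084 at 0 to 21 h alone. For miR-669o, cortex against liver was -0.40 with library run as a term and -0.49 with the animal block. With library run as a term, ratios of brain to liver rest on the 1 hypothalamus library of run 10. For miR-669c, the striatum passage ratio was -0.0041 with library run as a term and -0.012 without the libraries apart. For miR-466q, striatum against hypothalamus was -0.053 with no filter and DESeq2 size factors. The cause of these changes was not tested.

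With TMM scaling the summed CPM were 7.60 for liver, 36.3 for hypothalamus, 22.5 for striatum and 14 for cortex. With at least 3 counts required, members present in at least 50% of libraries fell to 5 in striatum and 1 in liver. Summing rows that share a mature sequence was not run, because the reference gives a mature sequence for 8 of 82 members.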
